A study of Homo sapiens with 22 samples.

Results

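The genes described here are 9 protein-coding genes that EWSR1::FLI1, the fusion transcription factor of Ewing sarcoma, is known to raise and that code for a cyclin, kinases, enzymes or membrane proteins. They are CCND1, PRKCB, VRK1, STEAP1, STEAP2, IL1RAP, CAV1, LIPI and KCNAB3. They were chosen by name, 9 of 20033 protein-coding genes of GENCODE release 44, and every deposited peak within 100 kb of any of their annotated transcription start sites (TSSs) on the human build hg38 was taken. All samples came from the established Ewing sarcoma line TC-32. In a reverse transfection at 20 nM, cells got either the negative control siRNA, called siNEG, or siFLI1, which targets the FLI1 transcript, part of which the fusion transcript carries. Chromatin was crosslinked with formaldehyde and immunoprecipitated for the transcription factor ETS1, for H3K27ac or for H3K4me3, with 2 samples per siRNA and antibody. A further H3K27ac pair, 1 sample per siRNA, carries the antibody label ab4729 together with the number of the other H3K27ac antibody, and it was kept apart as the ab4729 pair. Of 22 samples, 14 have a peak list, and the 8 input samples were not analysed here. Each arm rests on 1 siRNA reagent in 1 cell line. The labels do not say whether replicates came from separate cultures, so p-values measure only the spread between these samples, which may be technical. RNA and FLI1 itself are not measured in these lists, so the depletion of the fusion was not checked here.

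In Ewing sarcoma a translocation joins the activation domain of EWSR1 to the DNA-binding domain of FLI1, an ETS family factor. The fusion protein binds runs of GGAA repeats, which normal ETS factors use poorly, and recruits acetyltransferases there, so that such microsatellites gain H3K27ac and act as enhancers. H3K27ac marks active enhancers and promoters, H3K4me3 marks active promoters, and ETS1 is a widely expressed ETS factor that recognises single GGAA cores, often in promoters.

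At CCND1, IL1RAP and CAV1 the H3K27ac region with the largest ratio of siNEG to siFLI1 tags, among regions in all 4 lists, held a GGAA repeat. With LIPI, where that ratio was 1.04, this was so at 4 of the 9 genes, and at PRKCB, VRK1, the STEAP genes and KCNAB3 that region lay 7072, 28227, 53448 and 23427 bp from the nearest run. The same tally was not made over all coding genes, so whether 4 of 9 is more than usual is not known. The reference sequences of 9 of the 25 repeat clusters near the genes are shown first. A cluster joins runs of at least 4 consecutive GGAA units lying within 500 bp of each other. Each sequence is the hg38 reference, not the TC-32 allele, read 5′ to 3′ on the strand that spells GGAA, with 10 bases on each side. Capitals mark the runs of 4 or more units. The first 8 had H3K27ac within 5 kb in every list of the main antibody. The last, far upstream of PRKCB, had no H3K27ac peak within 5 kb in any list and is shown as a contrast with as long a run.
CCND1 upstream (intergenic, chr11:69622082-69622224, + strand): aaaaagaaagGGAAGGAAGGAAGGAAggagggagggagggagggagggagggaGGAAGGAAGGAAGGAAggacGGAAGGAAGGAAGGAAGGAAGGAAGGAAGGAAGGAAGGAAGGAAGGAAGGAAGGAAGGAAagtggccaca
CAV1 far upstream (intron of CAV2, chr7:116468702-116468765, − strand): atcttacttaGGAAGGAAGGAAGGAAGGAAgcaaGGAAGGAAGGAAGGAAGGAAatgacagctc
CAV1 promoter side (intergenic, chr7:116523057-116523246, + strand): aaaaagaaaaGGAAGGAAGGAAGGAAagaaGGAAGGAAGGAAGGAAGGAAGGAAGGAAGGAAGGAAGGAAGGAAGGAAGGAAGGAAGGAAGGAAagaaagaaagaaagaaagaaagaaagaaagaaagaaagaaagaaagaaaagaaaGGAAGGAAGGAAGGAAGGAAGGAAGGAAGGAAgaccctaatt
PRKCB repeat 1 (intron of PRKCB, chr16:23866988-23867059, − strand): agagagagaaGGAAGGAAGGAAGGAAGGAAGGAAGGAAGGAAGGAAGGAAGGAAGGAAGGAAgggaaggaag
PRKCB repeat 2 (intron of PRKCB, chr16:23902725-23902824, − strand): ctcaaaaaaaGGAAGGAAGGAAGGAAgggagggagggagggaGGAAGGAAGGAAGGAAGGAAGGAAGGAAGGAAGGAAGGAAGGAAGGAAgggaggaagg
IL1RAP repeat (intron of IL1RAP, chr3:190522281-190522352, − strand): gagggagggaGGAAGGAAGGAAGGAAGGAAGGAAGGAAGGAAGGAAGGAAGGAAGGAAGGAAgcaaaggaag
LIPI upstream (intergenic, chr21:14213282-14213345, − strand): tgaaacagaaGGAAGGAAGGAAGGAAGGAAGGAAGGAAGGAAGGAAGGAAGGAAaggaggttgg
STEAP2 repeat (intron of STEAP2 and of STEAP2-AS1, chr7:90208343-90208491, + strand): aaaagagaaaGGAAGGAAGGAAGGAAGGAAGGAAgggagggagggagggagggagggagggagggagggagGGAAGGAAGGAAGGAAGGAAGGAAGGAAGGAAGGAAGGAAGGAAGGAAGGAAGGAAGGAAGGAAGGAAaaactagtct
PRKCB far upstream, without H3K27ac (intergenic, chr16:23737525-23737640, − strand): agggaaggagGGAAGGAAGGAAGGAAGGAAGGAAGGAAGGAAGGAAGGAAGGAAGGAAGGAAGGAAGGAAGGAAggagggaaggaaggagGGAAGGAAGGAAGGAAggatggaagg
The longest uninterrupted runs were 15 units upstream of CCND1, 16 beside the CAV1 promoter, 13 and 12 at the PRKCB repeats 1 and 2, 13 in IL1RAP, 11 upstream of LIPI and 17 in STEAP2. The repeat far upstream of CAV1 is short, with 2 runs of 5 units each. The contrast repeat has a run of 16 units.

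The lists held 60027 and 60401 peaks for siNEG H3K27ac and 65501 and 61481 for siFLI1, and 18344 to 19720 for H3K4me3. The ab4729 lists held 32738 peaks for siNEG and 51663 for siFLI1, and covered 15.4 and 25.5 Mb. ETS1 lists were small, with 302 and 208 peaks in siNEG against 1633 and 2635 in siFLI1. The files hold no read totals. The deposited fold enrichments and p-values gave whole numbers of tags (sequenced fragments piled up at the peak's highest point, its summit) for 95.2% to 100% of peaks per list. Estimated depths from these values were 36.0 to 37.9 M tags for the 8 lists of the H3K4me3 and main H3K27ac antibodies, near enough to each other that tags could be set side by side. At peaks they shared, the 2 siFLI1 lists for ETS1 agreed more closely than sampling noise allows (chi-square per degree of freedom 0.417 over 496 regions, lower-tail p = 2.03e-33). Peak names inside the replicate 1 list also carry the replicate number 2, and the lists were counted as 1 sample. Among markers, CD99, NKX2-2, NR0B1, BCL11B and PAX7 had H3K4me3 over a TSS in all 4 lists, PAX7 had no H3K27ac there, and the blood markers PTPRC and CD3E had neither mark. PECAM1 (endothelium) and EPCAM (epithelium) had no H3K4me3 but H3K27ac over a TSS in 2 siNEG lists and 1 siFLI1 list, and PDGFRB (stroma) had both marks in all lists.

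Peaks of an antibody's lists that overlapped by 1 bp or more were joined into regions. Lost regions held peaks of both siNEG lists and of no siFLI1 list, and gained regions the reverse. Within 100 kb of the 9 genes there were 202 H3K27ac regions. Of these 19 (9.41%) were lost, against 4.86% of all 90572 regions, and 6 (2.97%) were gained, against 8.19%. A further 56 were in all 4 lists and 121 were mixed. At least 1 lost region lay near 7 of the 9 genes, against 34.9% of the 17823 coding genes with an H3K27ac region in reach, and at least 1 gained region near 5, against 54.9%. There were more lost than gained regions at 5 of the genes (CCND1, PRKCB, VRK1, STEAP1 and STEAP2), against 17.9% of genes, and more gained than lost at 2 (LIPI and KCNAB3), against 43.2%. STEAP1 and STEAP2 are neighbours and share all 5 of their regions, so they are not separate observations. The lost regions were weak peaks, with 17 to 37 tags at their summits, and the gained ones had 21 to 40. Both counts depended on the number of lists: leaving out 1 list in turn gave 21 to 58 lost and 10 to 32 gained regions. Without siFLI1 replicate 2 the order turned, with 21 lost (10.2%, against 7.07% of all) and 32 gained (15.5%, against 25.2%), whereas without siNEG replicate 1 or 2 there were 56 and 58 lost (30.1% and 31.4%, against 19.2% and 19.4%) and 12 and 10 gained (6.45% and 5.41%, against 12.8% and 11.4%). With the ab4729 list added to each arm, 1 region was lost (0.478%, against 0.569%) and 2 were gained (0.957%, against 2.44%), so the share of lost regions was then no higher than over all regions. When absence required that no peak of the other arm lay within 1 kb, 14 lost regions (6.93%, against 3.31% of all) and 0 gained ones (against 5.95%) were left. In the ab4729 pair, 18 of the 19 lost regions had no peak in either list and 1 had a siNEG peak only. Of the 6 gained regions, 2 had a siFLI1 peak only, 1 had both and 3 had neither.

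The length of DNA under H3K27ac peaks within 100 kb gave 1 value per list and gene. Over coding genes it was generally longer after siFLI1, with a median log2 ratio of siFLI1 to siNEG of 0.27. Both siFLI1 lists lay above both siNEG lists at 53% of genes and below them at 15.6%. Of the 9 genes, both siNEG lists were above at 4, both siFLI1 lists at 1, and the arms overlapped at 4. Without siNEG replicate 2 the count with siNEG above was 7, and with the ab4729 list added to each arm it was 0. That 0 follows from list size: the ab4729 lists cover 15.4 and 25.5 Mb, the main H3K27ac lists 58.6 to 69.2 Mb. At each of the 4 genes with siNEG above, the siNEG ab4729 value lay below both main siFLI1 values. This setting therefore cannot show the order within the ab4729 pair. With 2 lists against 2, the exact two-sided permutation test cannot go under p = 0.333, so no single gene could pass a threshold here.

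**Figure D1:**
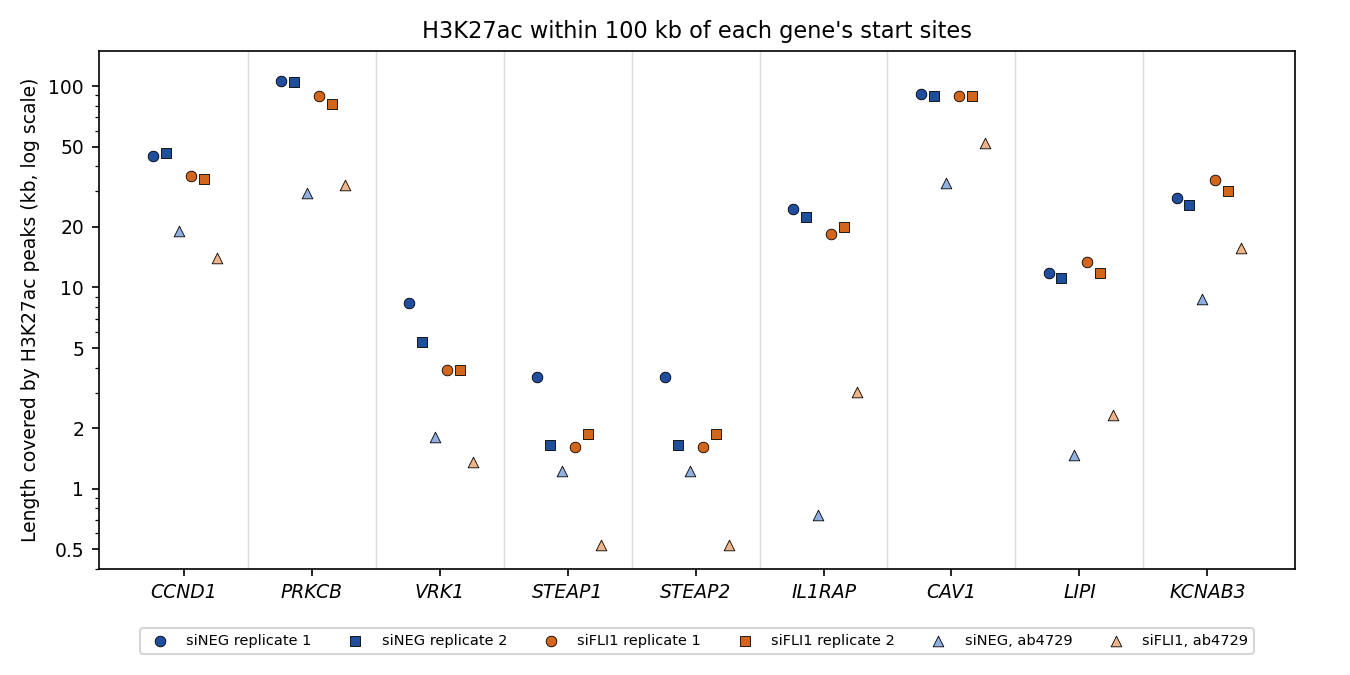
Length of DNA under H3K27ac peaks within 100 kb of each gene's TSSs (kb, log axis), 1 point per list, for siNEG and siFLI1 with the main antibody and, as triangles, for the ab4729 pair. Both siNEG points lie above both siFLI1 points at CCND1, PRKCB, VRK1 and IL1RAP, and below them at KCNAB3.

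In regions found in all 4 lists, peak height could be compared as the most tags at any summit. Among the 56 such H3K27ac regions near the 9 genes, both siNEG lists were above both siFLI1 lists at 22 (39.3%) and below them at 8 (14.3%). Over all 22724 such regions these shares were 23.3% and 32.1%. The median log2 ratio of siFLI1 to siNEG was −0.20 near the 9 genes and 0.07 over all. By the deposited fold in place of tags, both siNEG lists were above at 16 of the 56 (28.6%) and below at 10 (17.9%), against 17.1% and 32.4% of all such regions. The median log2 ratio of folds was −0.08 near the 9 genes and 0.14 over all.

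CCND1 codes for cyclin D1, which activates CDK4 and CDK6 to drive cells through the first gap phase of the cycle. Its gene (ENSG00000110092.4, chr11:69641156-69654474, + strand) lay in a window with 22 H3K27ac regions. H3K27ac covered 44.8 and 46.5 kb in the siNEG lists and 35.8 and 34.5 kb in the siFLI1 lists. The means were 45.6 ± 1.20 kb and 35.1 ± 0.909 kb (SD, n = 2 each; log2 ratio −0.38, exact permutation p = 0.333), a ratio at percentile 9.26 among coding genes. The ab4729 pair had 19.0 kb in siNEG and 14.1 kb in siFLI1. The arms did not overlap, and the ab4729 pair had the same order.

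H3K4me3 over the CCND1 start (region chr11:69636356-69649185) reached 570 and 704 tags in siNEG and 345 and 344 in siFLI1. Both siNEG values were above both siFLI1 values, a 1.85-fold higher mean, at percentile 0.952 of the log2 ratio among 11243 H3K4me3 regions over a coding TSS. The H3K27ac region over the same start (chr11:69634058-69659516) had 140 and 105 tags in siNEG and 77 and 69 in siFLI1, 1.68-fold higher in siNEG. The largest difference at this gene lay at the CCND1 upstream repeat, 18942 bp from the nearest TSS. The 4 + 4 + 15 units there sat inside an H3K27ac region of 9409 bp (chr11:69618536-69627944). Its summit had 266 and 200 tags in siNEG and 49 in each siFLI1 list, 4.76-fold higher in siNEG, and it stayed 503 to 599 bp from the cluster's centre in all 4 lists. In the ab4729 pair the highest summit within 1 kb of this cluster had 36 tags in siNEG and 20 in siFLI1. All 4 lost regions of CCND1 were weaker than this. They were chr11:69599265-69600882, chr11:69614886-69617105 and chr11:69627959-69628961 upstream of the gene, and chr11:69660186-69661395 in an intron of LTO1, the next gene, with 21 to 32 tags. One region in the window had the opposite order: at LTO1 (chr11:69670074-69676041) the summits had 63 and 45 tags in siNEG and 76 and 87 in siFLI1.

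PRKCB codes for protein kinase C beta, a serine/threonine kinase activated by calcium and diacylglycerol. The gene (ENSG00000166501.14, chr16:23835983-24220611, + strand) has 11 annotated TSSs, and its window of 549.5 kb is the longest of the 9. H3K27ac covered 105.8 and 104.8 kb in siNEG and 89.3 and 81.3 kb in siFLI1 (log2 ratio −0.30, exact permutation p = 0.333, percentile 11.5). The arms did not overlap. The ab4729 pair had the opposite order, 29.4 kb in siNEG and 32.4 kb in siFLI1.

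PRKCB had 11 of the 19 lost regions and 2 of the 6 gained ones, out of 93. The strongest lost region was chr16:23780756-23782013, 53970 bp upstream, with folds of 7.11 and 5.13 in siNEG. The widest, chr16:24033876-24037208, spans 3333 bp over an internal TSS and had 32 and 34 tags. The gained regions, chr16:24085889-24086898 and chr16:24138202-24139748, had 26 and 40 tags and 33 and 30 tags in siFLI1. At the main start the marks differed from each other. H3K4me3 (chr16:23834933-23840997) had 431 and 478 tags in siNEG and 259 and 283 in siFLI1, 1.68-fold higher in siNEG, at percentile 1.67. H3K27ac under that H3K4me3 region was weak and scattered. A peak of 27 tags in siNEG replicate 2 lay over an annotated TSS, other peaks had 17 and 18 tags in siNEG replicate 1 and 23 in siFLI1 replicate 1, and a lost region (chr16:23838369-23839064) had 18 and 21. Over another internal TSS (chr16:24149914-24153080) H3K27ac was in all lists, at 77 and 53 tags in siNEG and 70 and 74 in siFLI1, which overlap.

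The highest H3K27ac region of PRKCB, chr16:23854233-23863079 in an intron, had 398 and 258 tags in siNEG and 157 and 135 in siFLI1, 2.25-fold higher in siNEG, and lay 3919 bp from the nearest run of GGAA. The region with the largest ratio of siNEG to siFLI1 tags, chr16:24201462-24210097 in an intron, had 167 and 127 tags against 57 and 52, 2.70-fold higher in siNEG, 7072 bp from the nearest run. By tags both siNEG lists were above at 10 of the 22 PRKCB regions in all lists (45.5%, against 23.3% of all such regions). By the deposited fold both siNEG lists were above at 7 (31.8%, against 17.1%) and both siFLI1 lists at 5 (22.7%, against 32.4%). The opposite order by tags was found at 2 of the 22 (9.09%, against 32.1%), both in introns. At chr16:24144447-24148832 the tags were 30 and 22 in siNEG and 78 and 67 in siFLI1, a ratio of siNEG to siFLI1 of 0.359, and at chr16:24101259-24103672 they were 19 and 26 against 33 and 49. Both PRKCB repeats printed above with H3K27ac lie inside the gene. At repeat 1, 29775 bp downstream of the nearest TSS, the highest summit within 5 kb had 147 and 96 tags in siNEG and 51 and 61 in siFLI1. At repeat 2, 60902 bp upstream of the nearest TSS, it had 237 and 185 in siNEG and 112 and 116 in siFLI1. Both had higher siNEG values, by 2.17 and 1.85-fold. The place of the highest summit differed too. At repeat 2 it lay 956 and 980 bp to one side of the centre in siNEG and 2106 and 2160 bp to the other side in siFLI1. Neither siFLI1 list of the main antibody had a summit within 1 kb of the repeat. Only the strongest summit of each peak was used, and a wide peak of each siFLI1 list still covered the repeat. In the ab4729 pair the highest summit within 1 kb of repeat 2 had 39 tags in siNEG and 22 in siFLI1, but within 5 kb it had 39 and 45, the opposite order, and at repeat 1 it had 24 in each within 5 kb. At repeat 1 the summit within 1 kb was in both siNEG lists and, with 32 tags, in 1 siFLI1 list. A run of 8 units between repeats 1 and 2 (46 kb from the first TSS) had the opposite order, 23 and 32 tags in siNEG against 46 and 50 in siFLI1. These summits lay at different places, and within 1 kb of the run there were 32 tags in siNEG replicate 2, no summit in siNEG replicate 1, and 20 and 31 tags in siFLI1. Clusters further into the gene, of 11 and 4 units, overlapped between the arms, at 21 and 37 against 24 and 22 tags and 50 and 39 against 41 and 58. The far upstream clusters with runs of 16 units had no H3K27ac within 5 kb in any list, long as these runs are.

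VRK1 codes for a nuclear serine/threonine kinase of the vaccinia-related family, which phosphorylates chromatin proteins. The gene (ENSG00000100749.9, chr14:96797304-96954846, + strand) had 9 H3K27ac regions. H3K27ac covered 8.41 and 5.37 kb in siNEG and 3.88 kb in each siFLI1 list (log2 ratio −0.83, exact permutation p = 0.333), at percentile 3.39, the lowest of the 9 genes. The ratio moved with the siNEG list used, to −0.47 without siNEG replicate 1 and −1.12 without siNEG replicate 2, with siNEG above in both. The ab4729 pair had 1.80 kb in siNEG and 1.35 kb in siFLI1. Over the start (chr14:96797414-96798762) H3K27ac had 64 and 46 tags in siNEG and 26 and 35 in siFLI1, 1.80-fold higher in siNEG. H3K4me3 there (chr14:96797226-96800354) had 293 and 334 tags in siNEG and 252 and 251 in siFLI1, 1.25-fold higher. Neither mark's arms overlapped. The 1 lost region, chr14:96862804-96863909, lies in an intron 999 bp from an internal TSS and had 28 and 20 tags. VRK1 has 2 repeat clusters in its window, the longest run of 11 units, and no list had H3K27ac within 5 kb of either. Of its 4 H3K27ac regions in all lists, both siNEG lists were above at 3 by tags, the start and 2 regions in introns (chr14:96804957-96806994 with 26 and 28 against 22 and 21 tags, chr14:96820414-96823315 with 79 and 60 against 42 and 59). By the deposited fold they were above at 2 of the 4. Over all such regions the shares were 23.3% by tags and 17.1% by fold.

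**Figure D2:**
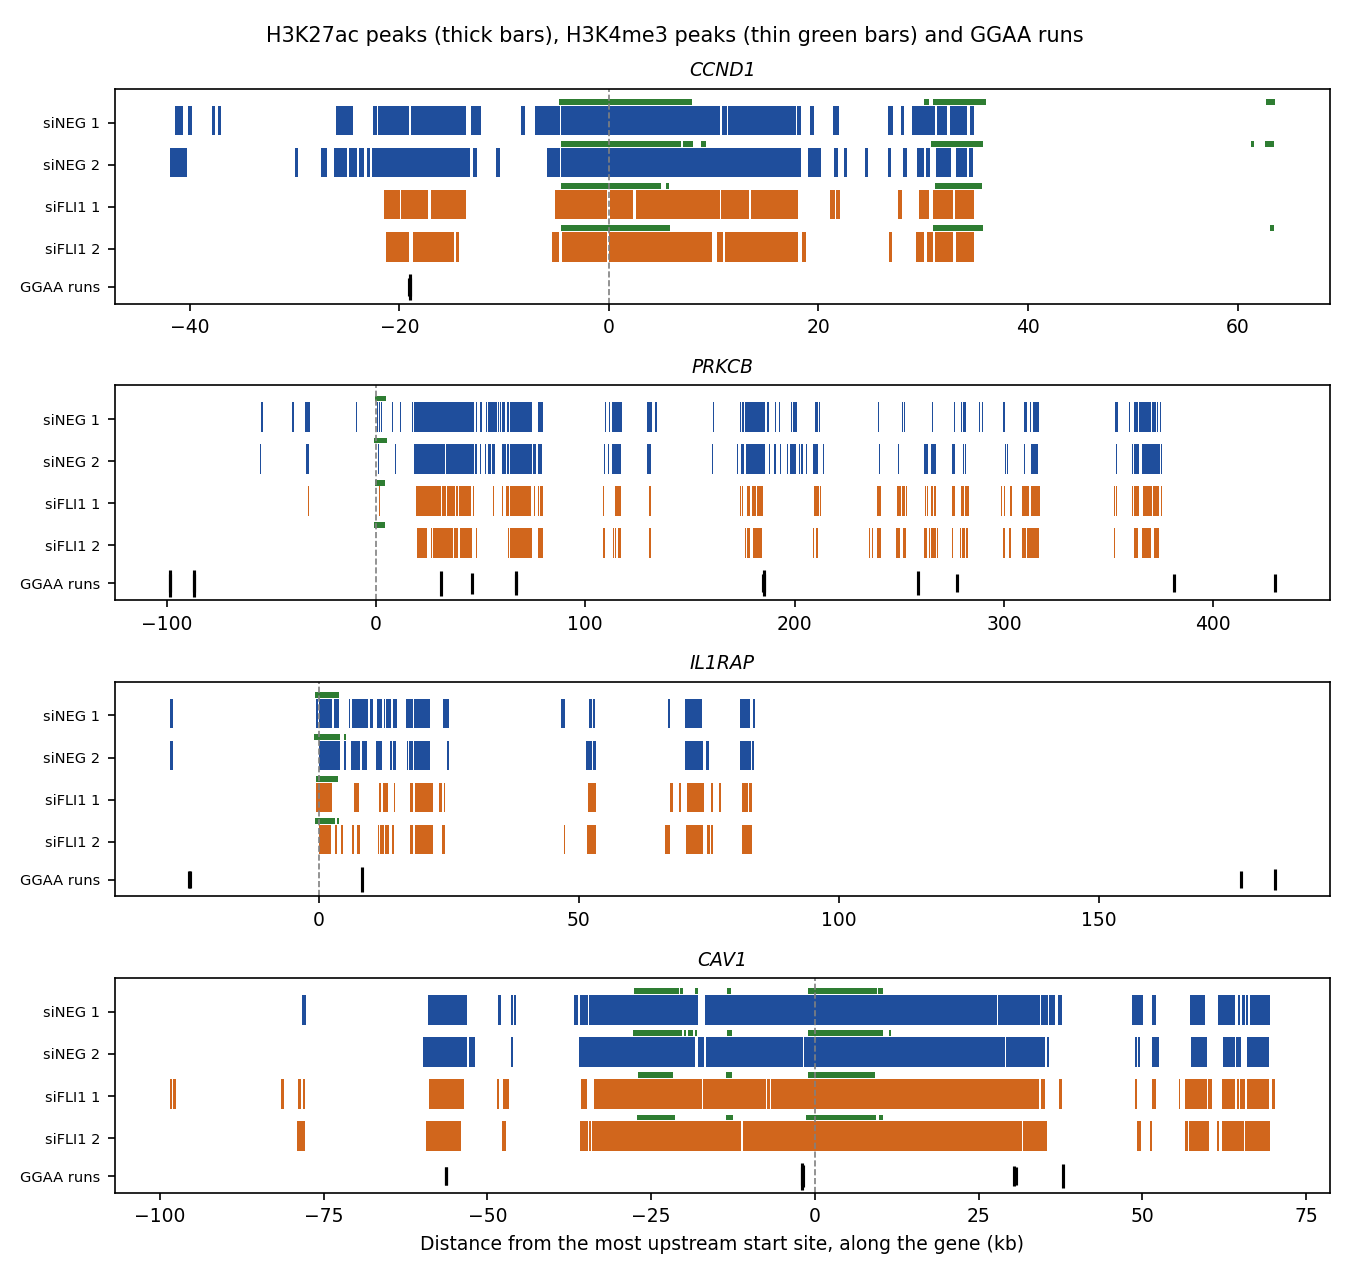
H3K27ac peaks by list (thick bars, siNEG blue and siFLI1 orange), H3K4me3 peaks (thin green) and GGAA runs (black ticks, taller for more units) around CCND1, PRKCB, IL1RAP and CAV1. The horizontal axis is the distance in kb from the most upstream TSS, in the direction of transcription. The CCND1 upstream repeat lies inside a broad block 19 kb before the start, and the CAV1 locus is covered around its start in all 4 lists.

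STEAP1 and STEAP2 are membrane proteins of a metalloreductase family, and STEAP1 is followed as a surface target in Ewing sarcoma. Their genes (ENSG00000164647.9, chr7:90154456-90164829, and ENSG00000157214.14, chr7:90167590-90238137, both + strand) shared 5 H3K27ac regions. H3K27ac covered 3.60 and 1.65 kb in siNEG and 1.62 and 1.86 kb in siFLI1. The arms overlapped (log2 ratio −0.60, exact permutation p = 0.667), and siNEG replicate 1 set the difference: without it the log2 ratio was 0.07. The 1 lost region, chr7:90208641-90209047, is 407 bp wide, had 26 and 18 tags, and lies beside the STEAP2 repeat with its 6 + 17 units. This cluster had an H3K27ac summit within 1 kb in both siNEG lists and in no siFLI1 list. Its highest summit within 5 kb, which lay 2726 to 3129 bp away, overlapped between the arms, at 48 and 39 tags in siNEG and 46 and 38 in siFLI1. At the promoters, H3K4me3 over STEAP1 (chr7:90153721-90156394) had 179 and 172 tags in siNEG and 138 and 124 in siFLI1, 1.34-fold higher in siNEG. Over STEAP2 (chr7:90210754-90214096) it had 200 and 203 against 191 and 182, 1.08-fold higher. In tags, H3K27ac over both starts overlapped between the arms, at 37 and 25 against 23 and 26 for STEAP1 and 48 and 39 against 46 and 38 for STEAP2. By the deposited fold STEAP2 did not overlap, with 9.19 and 5.96 in siNEG against 5.72 and 5.11 in siFLI1.

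IL1RAP codes for the shared accessory receptor chain that interleukin-1 family receptors need to signal. The gene (ENSG00000196083.11, chr3:190514051-190659750, + strand) had 21 H3K27ac regions, 1 lost and 1 gained. H3K27ac covered 24.6 and 22.3 kb in siNEG and 18.5 and 20.0 kb in siFLI1 (log2 ratio −0.28, exact permutation p = 0.333), at percentile 12. The arms did not overlap, whereas the ab4729 pair covered little here, 0.738 kb in siNEG and 3.04 kb in siFLI1. The IL1RAP repeat, 13 units 6072 bp downstream of the nearest TSS, had 65 and 55 tags in siNEG and 36 and 31 in siFLI1 at the highest summit within 5 kb, 1.79-fold higher in siNEG. The 36 lay 4716 bp from the repeat, and within 1 kb the siFLI1 lists had 32 and 31. In siNEG the highest H3K27ac region of IL1RAP lay elsewhere (chr3:190532313-190536004) and overlapped between the arms, at 94 and 79 against 90 and 75 tags. Another intronic region, chr3:190584393-190588036, had the opposite order to the repeat, with 66 and 56 tags in siNEG and 78 and 103 in siFLI1. The promoter did not have the order of the repeat. H3K27ac over the start had 34 and 36 tags in siNEG and 44 and 39 in siFLI1, and H3K4me3 (chr3:190513180-190518023) had 308 and 272 against 325 and 270, which overlap. The lost region, chr3:190485417-190486087, lies 27964 bp upstream and had 32 and 29 tags. The gained one, chr3:190589411-190589863 in an intron, had 27 and 21.

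CAV1 codes for caveolin-1, the scaffold protein of caveolae at the plasma membrane. Its gene (ENSG00000105974.13, chr7:116524994-116561179, + strand) lies beside CAV2, its partner in caveolae, whose window overlaps. H3K27ac covered 91.5 and 89.0 kb in siNEG and 89.6 and 89.3 kb in siFLI1, overlapping (log2 ratio −0.01, exact permutation p = 1), while the ab4729 pair had 33.2 and 52.2 kb. Covered length did not separate the arms, but peak height did at 3 of its 4 repeat clusters. The short repeat in CAV2, 56239 bp upstream of the nearest CAV1 TSS, had 424 and 336 tags in siNEG and 80 and 106 in siFLI1. That is 4.09-fold higher in siNEG, at percentile 3.87 among clusters, with summits 443 to 604 bp from the centre in all 4 lists. In the ab4729 pair the highest summit within 1 kb had 73 tags in siNEG and 31 in siFLI1. The longer repeat beside the promoter, with 4 + 16 + 8 units, had 492 and 349 tags in siNEG and 319 and 353 in siFLI1, which overlap. Downstream clusters of 6 + 4 and of 12 units had 77 and 57 against 33 and 39, and 51 and 57 against 33 and 39, tags. These clusters lie close enough to share 3 of these summits (57, 33 and 39), so they are not separate observations although both enter the counts of clusters. H3K4me3 over the start (chr7:116523709-116535470) had 709 and 771 tags in siNEG and 586 and 615 in siFLI1, 1.23-fold higher in siNEG. A gained and a lost H3K27ac region lay next to each other in a CAV2 intron, at chr7:116477298-116478364 and chr7:116478536-116478980, with 20 to 27 tags. A lost H3K4me3 region over a CAV2 exon, chr7:116506648-116507106, had 27 and 21 tags.

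LIPI codes for a membrane-associated lipase that makes lysophosphatidic acid and is a known antigen of Ewing sarcoma. The gene (ENSG00000188992.12, chr21:14108813-14210955, − strand) had 4 H3K27ac regions, none lost. H3K27ac covered 11.8 and 11.1 kb in siNEG and 13.4 and 11.7 kb in siFLI1, overlapping (log2 ratio 0.14, exact permutation p = 0.667). H3K4me3 over its start (chr21:14205278-14211924) had 203 and 225 tags in siNEG and 108 and 115 in siFLI1. This 1.92-fold higher siNEG mean was at percentile 0.809, the lowest ratio of the 9 genes. At the LIPI upstream repeat, 11 units 2337 bp from the TSS, both siNEG lists had their highest summit close by, 475 and 472 bp from the centre, with 88 and 58 tags. In siFLI1 the highest summits lay 3484 and 3125 bp away with 50 and 54 tags, and within 1 kb only 1 list had a summit, of 35 tags. Both siFLI1 lists still had a peak within 1 kb of this repeat. The gained region, chr21:14218032-14219271 in an intron of RBM11, had 27 and 22 tags.

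KCNAB3 codes for an auxiliary beta subunit of voltage-gated potassium channels. It lies in a gene-dense stretch (ENSG00000170049.10, chr17:7921859-7929856, − strand) and was the 1 gene with more H3K27ac coverage in both siFLI1 lists. Coverage was 27.8 and 25.8 kb in siNEG and 34.1 and 30.2 kb in siFLI1 (log2 ratio 0.26, exact permutation p = 0.333), at percentile 47.6, near the middle of all genes. The ab4729 pair had 8.78 and 15.7 kb. No H3K27ac region lay over a KCNAB3 TSS. The H3K4me3 region there (chr17:7927724-7936141), which also covers the starts of CNTROB and TRAPPC1, had 315 and 343 tags in siNEG and 316 in each siFLI1 list, which overlap. A repeat of 5 units in the window had no H3K27ac peak within 1 kb in any list. The highest summits within 5 kb, 4258 to 4302 bp away in a region over a start of RNF227, had 70 and 47 tags in siNEG and 41 and 38 in siFLI1, both siNEG lists above, while covered length within 5 kb of it had the reverse order, 0.770 and 0.391 kb in siNEG against 1.12 and 0.957 kb in siFLI1. A gained H3K27ac region over an exon of KDM6B (chr17:7853635-7854392) had 21 and 27 tags, and a lost H3K4me3 region in an intron of NAA38 (chr17:7881002-7881552) had 26 and 25.

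Across the 9 promoters H3K4me3 was in all 4 lists. By tags both siNEG lists were above at 7 and below at 0, with 2 overlapping, against 29.6% and 33.5% of the 11243 regions over a coding TSS. By the deposited fold both siNEG lists were above at 6, below at 2 and overlapping at 1, against 16.8% and 28.8%. The 2 genes with higher folds in siFLI1 were IL1RAP (40.5 and 39.3 against 68.0 and 49.7) and KCNAB3 (56.6 and 45.7 against 66.1 and 60.6), and their tags overlapped. The cause of this disagreement was not tested. The median log2 ratio over all these regions was 0.01 for tags and 0.07 for fold. H3K27ac over a start, where it was in all lists, had by tags both siNEG values above at CCND1 and VRK1 and both siFLI1 values above at IL1RAP. By the deposited fold the arms overlapped at CCND1 (18.1 and 11.8 against 13.4 and 12.8) and IL1RAP, and both siNEG values were above at VRK1 and STEAP2. Over all 8724 such regions 14.6% had siNEG above by tags and 36.2% siFLI1 above. Of 33 H3K4me3 regions near the genes 2 were lost (6.06%, against 2.83% of all) and 0 gained (against 2.17%).

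The length under H3K4me3 peaks within 100 kb was also given by list. It was 19.2 and 19.1 kb in siNEG and 14.4 and 15.5 kb in siFLI1 at CCND1, and 12.7 and 11.98 against 10.6 kb in each siFLI1 list at LIPI. At CAV1 it was 19.8 and 21.5 kb against 16.7 and 17.9 kb. At KCNAB3 it was 34.5 and 33.2 kb in siNEG and 29.1 and 27.8 kb in siFLI1, the opposite order to H3K27ac there, and both orders are those of most coding genes. PRKCB had 5.46 and 5.94 kb against 4.65 and 5.02 kb, and IL1RAP had 4.55 and 5.34 kb against 4.23 and 4.11 kb. At the STEAP genes it was 8.907 and 8.399 kb against 7.957 and 8.396 kb, a difference of a few bases between the nearest lists. The arms overlapped at VRK1 (2.44 and 3.42 kb against 2.70 and 2.66 kb). Both siNEG lists were thus above at 8 of the 9 genes, both siFLI1 lists at 0, against 52.2% and 14.1% of 17544 coding genes with an H3K4me3 region in reach. The median log2 ratio over those genes was −0.12, so shorter H3K4me3 coverage after siFLI1 was general.

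**Figure D3:**
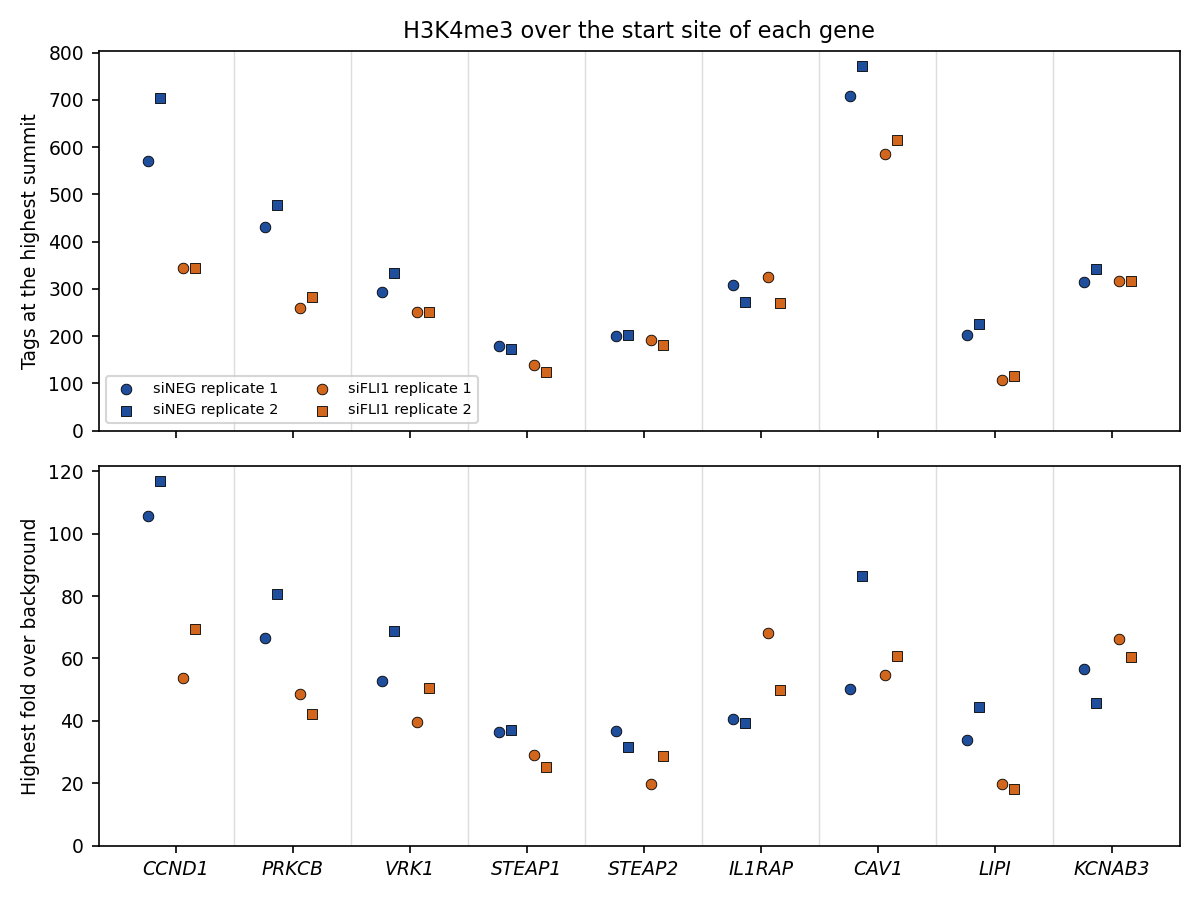
H3K4me3 over each gene's TSS by list, as the most tags at a summit (top) and the highest deposited fold (bottom); circles are replicate 1 and squares replicate 2, siNEG blue and siFLI1 orange. CCND1, PRKCB and LIPI have the largest ratios of siNEG to siFLI1 tags, and IL1RAP and KCNAB3 have higher folds but overlapping tags in siFLI1.

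The windows held 40 runs of at least 4 GGAA units. H3K27ac lay within 1 kb of 22 runs (55%) in both siNEG lists and of 19 (47.5%) in both siFLI1 lists. Over the 10900 runs near all coding genes these shares were 12.2% and 8.21%. The mark was within 1 kb in both siNEG lists and no siFLI1 list at 2 runs (5%), both in STEAP2, against 3.54%. Among runs of at least 10 units, 8 of 13 near the 9 genes were marked in both siNEG lists (61.5%), against 25.7% of 2216 near all genes. Shorter runs were marked at 51.9% of 27, against 8.80% of 8684. Runs of the same cluster were counted singly. Many marked shorter runs lie beside a marked long run, as at the CCND1, STEAP2 and CAV1 promoter-side repeats. They are not separate observations and do not show that short runs are marked alone. The 9 genes were chosen as fusion targets, so a high share of marked repeats describes them and is not separate evidence.

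Of the 25 clusters, 16 had H3K27ac within 5 kb. Covered length there was above in both siNEG lists at 9 and in both siFLI1 lists at 1, against 43.4% and 19.4% of 2214 clusters near all coding genes. A summit within 5 kb was present in all 4 lists at 15 clusters. Tags were higher in both siNEG lists at 10 of these and in both siFLI1 lists at 1, against 49.7% and 20.2% of 1060. In the ab4729 pair, 12 of the 15 clusters had a summit within 5 kb in both lists, with more tags in siNEG at 6, more in siFLI1 at 4 and equal tags at 2. With the main antibody the median log2 ratio was −0.58 near the 9 genes and −0.30 over all clusters. The order with siNEG above was thus common at GGAA clusters in the whole data set, and the CCND1 and CAV1 far upstream clusters were among its lowest ratios, at percentiles 1.60 and 3.87. Of 7 clusters with a summit within 1 kb in both siNEG lists, 2 (PRKCB repeat 2 and the STEAP2 repeat) had none within 1 kb in either siFLI1 list, against 34.4% of 758. A peak of each siFLI1 list still covered PRKCB repeat 2, whereas no siFLI1 peak lay within 1 kb of the STEAP2 repeat.

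**Figure D4:**
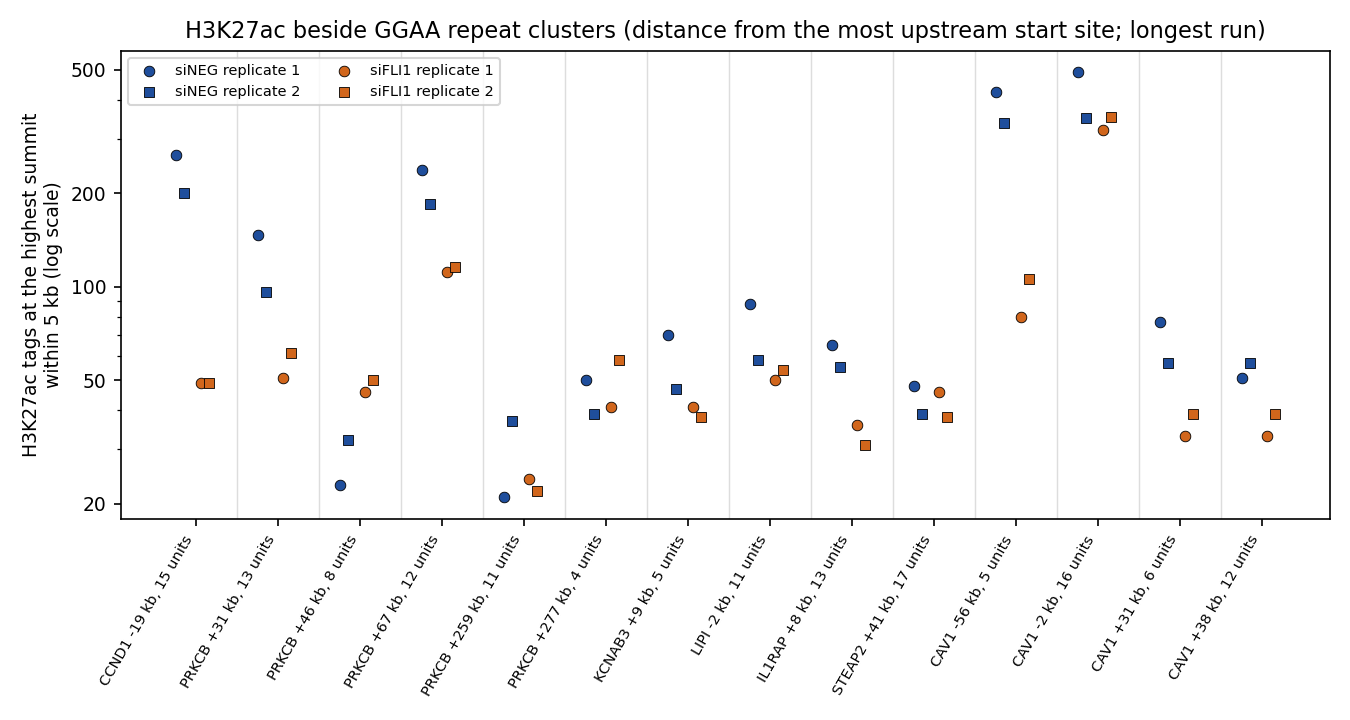
Most tags at an H3K27ac summit within 5 kb of each of 14 of the 15 GGAA clusters (log axis), 1 point per list, siNEG blue and siFLI1 orange. The widest gaps are at the CCND1 cluster 19 kb upstream and the CAV1 cluster 56 kb upstream, and the PRKCB cluster of 8 units has the reverse order.

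ETS1 peaks were few at these genes. The siNEG lists had 0 within 100 kb and the siFLI1 lists 4 and 7, in 7 merged regions, none of them near 7 of the 9 genes. At CCND1 the siFLI1 lists had 1 peak each, at different places: chr11:69640817-69641345 over the TSS with 15 tags in replicate 1, and chr11:69639180-69639334 with 15 tags in replicate 2. The other 5 regions lay at KDM6B, near KCNAB3, and 3 of them were in both siFLI1 lists with 16 to 22 tags. These 3 gained regions (and 0 lost) stand against 44% gained and 0.0739% lost of all 2706 ETS1 regions, and since the siFLI1 lists counted as 1 sample they rest on 1 sample. When the lists were trimmed to equal size by strength, 0 ETS1 regions were left near the genes. The string CCGGAA, longer than the GGAA core and searched on both strands, was in none of the ETS1 peaks near the genes. Its share among all ETS1 peaks was not counted, so this has no background here. Promoter sequences (250 bases before to 50 after a start, from RefSeq on GRCh38) matched 6 of the genes, and 2 of their 10 promoters held it, 1 of STEAP1 and 1 of STEAP2, against 17.2% of 35116 promoters. No match says only that these letters are not in the window.

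Related genes were counted the same way. Of 38 relatives (other D-type cyclins and their kinases, other protein kinase C, STEAP, interleukin-1 receptor, VRK, lipase, caveolin, cavin and channel beta subunit genes), 35 had an H3K27ac region in reach. Covered length was above in both siNEG lists at 5 (14.3%), above in both siFLI1 lists at 15 (42.9%) and overlapping at 15, near the background of 15.6% and 53%. IL1RL1 and IL18R1, both among the 5, have identical values and are not separate observations. More lost than gained regions were found at 7 (20%) and more gained than lost at 10 (28.6%). CDK6, a kinase partner of cyclin D1, had 2.42 and 2.53 kb in siNEG and 8.00 and 7.46 kb in siFLI1, with 1 lost and 5 gained regions. PRKCE, a calcium-independent protein kinase C, had 33.5 and 30.8 kb against 42.0 and 42.3 kb, with 1 lost and 6 gained. Both had more H3K27ac coverage after siFLI1, the order opposite to CCND1 and PRKCB, and the difference between relatives and the 9 genes was not tested.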

How the data were processed

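ChIP-seq of TC-32 cells was analysed from 14 deposited peak lists. Per the submitters' processing notes, the authors used cutadapt 4.4, BWA 0.7.17, Picard 2.17.11 and MACS2 2.1.1, with GRCh38/hg38 and dm6 named as builds without a role. The peak caller's settings, its control and any scaling are not given in the sources used here, and lists were deposited per sample. The deposited values per peak are a fold enrichment (a ratio), a −log10 p, a −log10 q and a score. The authors' score was not used. The lowest deposited −log10 q in any list was 2.01, so weaker signal is not seen and absence from a list is not absence of the mark.

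Peaks were merged where they shared 1 bp or more, placed on GENCODE release 44, and counted with Python 3.11.15, numpy 2.4.6 and scipy 1.17.1. The members, the lists of relatives and markers and the tests were chosen with earlier results of these data known. All 9 members are named; regions named singly are the lost or gained ones, those over a TSS, ETS1 regions and repeats with H3K27ac, the strongest where there were many. Tags at a summit were solved from the deposited fold and −log10 p by the MACS2 formulas (tolerance 0.003), a measure chosen after seeing the data, and depths assume a genome of 2.7 Gb. Counting error limits the precision of weak peaks. Covered length was compared by exact permutation tests. The counting and tag steps were tested on simulated data. The siFLI1 H3K27ac lists agreed more closely than sampling noise allows over the 20057 regions with at least 50 summed tags (chi-square per degree of freedom 0.933, lower-tail p = 4.43e-12), but differed by more over the 1609 with at least 200 (1.17), and were kept as 2 samples. The values of 1 repeat cluster are not reported here singly, but it enters the counts.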

Additional observations from a re-analysis of the deposited data

How the results depend on the processing

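Of 58 alternative values of the counts, 36 were within 1.5 times the value reported. With a −log10 q of at least 5, 12 H3K27ac regions (7.19%, against 4.83% of all) were lost and 1 H3K4me3 region was lost (3.23%, against 2.49%). With equal numbers of strongest peaks, 1 H3K4me3 region was lost (3.33%, against 2.296% of all) and 0 ETS1 regions of any kind were left. Requiring no peak within 1 kb left 0 gained H3K27ac regions, and a window of 200 kb gave 11 (3.89%, against 8.19% of all). With the ab4729 list added to each arm, 1 region was lost (0.478%, against 0.569% of all) and 2 were gained (0.957%, against 2.44%). All siNEG lists were then above in covered length at 0 genes in place of 4, a value set by the shorter ab4729 lists. A window of 50 kb left 2 ETS1 regions. H3K27ac in both siNEG lists lay beside 12 of 18 repeats (66.7%) when at least 6 units were required. It lay over 12 of 40 (30%) when it had to overlap them, against 22 of 40 (55%) as reported. Leaving out 1 list in turn gave 21 to 58 lost and 10 to 32 gained H3K27ac regions, 3 to 11 lost or gained H3K4me3 regions (11 lost, 31.4% against 17.3% of all, without siNEG replicate 1, and 7 lost, 22.6% against 13.8%, with 2 gained, 6.45% against 3.59%, without siNEG replicate 2), 4 to 7 ETS1 regions, 4 to 7 genes with longer covered length in siNEG and 22 to 23 marked repeats. Lost and gained counts rise by construction, since fewer lists must hold or lack a peak. Of 81 alternative values for single genes, 16 changed whether the arms overlapped. For H3K4me3 over starts, tags gave 7 genes and fold 6. Replicate numbers did not pair the samples (correlation of deviations 0.008 over 17823 genes), and the replicate block kept 4 genes, with a smallest possible p of 0.5. The cause was not tested for any of these changes unless stated. Peaks of under about 20 tags lie close to the calling limit, so lost and gained calls of such regions are the least precise.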
